A study of Homo sapiens with 16 samples.

Results

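The 10 genes described here carry tRNA methyltransferase names and encode such enzymes, their subunits or activators: TRMT10A, TRMT10B, TRMT10C, TRMT1, TRMT2A, TRMT5, TRMT6, TRMT61A, TRMT112 and TRMT12. They were taken by gene name from a table of 56969 Ensembl genes, and each name matched 1 row. TRMT10A was chosen because its RNA was among the largest increases after HCF-1 siRNA, so its values in that comparison are given as a description and not tested. The other 9 genes were chosen by their family name. HepG2 cells, an established human liver cancer line, received either siRNA against HCF-1, a chromatin-bound transcription cofactor encoded by HCFC1 (8 libraries), or a control siRNA (8 libraries). Each culture was transfected 2 times with siPORT NeoFX, 2 days apart, and total RNA was taken 2 days after the last transfection for stranded mRNA libraries. The groups differ in nothing else that the labels give, and the siRNA sequences were not used here. The labels call the libraries biological replicates and name no separate culture dates, so p-values measure the spread between these libraries.

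Transfer RNAs carry many methylated bases, placed by enzymes that use S-adenosylmethionine as the methyl donor. Methyl groups in the body of a tRNA mainly affect its folding and stability, and those at or beside the anticodon affect decoding. Several of these enzymes work as complexes, in which one subunit carries the active site and another binds the tRNA or stabilises its partner. Inherited loss of TRMT10A is known to cause small head size and early-onset diabetes.

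HCFC1 itself had 3112 to 4171 normalized counts in the HCF-1 siRNA libraries and 4851 to 6878 in the control siRNA libraries, so the knockdown left 65.4% of the control mean, and the groups did not overlap. Recovered reads totalled 25098840 to 43186890 in the HCF-1 siRNA libraries and 21030830 to 32820459 in the control siRNA libraries. All 11 liver markers looked at were detected, and their summed level was 949948 to 1126182 normalized counts after HCF-1 siRNA and 794493 to 869816 after control siRNA, with no overlap, and the part of this in the values below was not tested. The second principal component of all genes held 7.91% of the variance. HCF-1 siRNA replicates 3 and 6 and control siRNA replicates 6 and 7 were the 4 highest libraries on it. The sign of a component is arbitrary, and the high end was set as the one with control siRNA replicate 6. At the other end, control siRNA replicates 1, 3 and 5 (-22.8, -27.5 and -17.7) and HCF-1 siRNA replicate 8 (-22.7) were kept. These lay further out than control siRNA replicate 7 (15.6). Results that change without the 4 highest libraries are given both ways. Of markers of other cell types, the blood markers HBB and PTPRC were at 0 to 3.60 normalized counts in every library, and CD68, PDGFRB and CDH5 were present: CD68 at 1091 to 1272 after HCF-1 siRNA and 1030.1 to 1293 after control siRNA, PDGFRB at 377 to 896 after HCF-1 siRNA and 337 to 587 after control siRNA, and CDH5 at 77.5 to 140.3 after HCF-1 siRNA and 75.4 to 144 after control siRNA. The groups overlapped for CD68, PDGFRB and CDH5. VWF, COL1A2, COL3A1 and DCN had group medians of 0 to 15.6, and COL3A1 reached 12.4 after HCF-1 siRNA and 246 after control siRNA; their part in the results was not tested. Of 56969 genes, 16081 had a mean normalized count of at least 10 and were tested, all 10 members among them; 36.6% passed the threshold of an adjusted p under 0.05 (limma, Benjamini-Hochberg over all genes tested), 18.2% higher and 18.3% lower after HCF-1 siRNA, and 8.90% both passed and changed at least 1.5-fold.

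**Figure D1:**
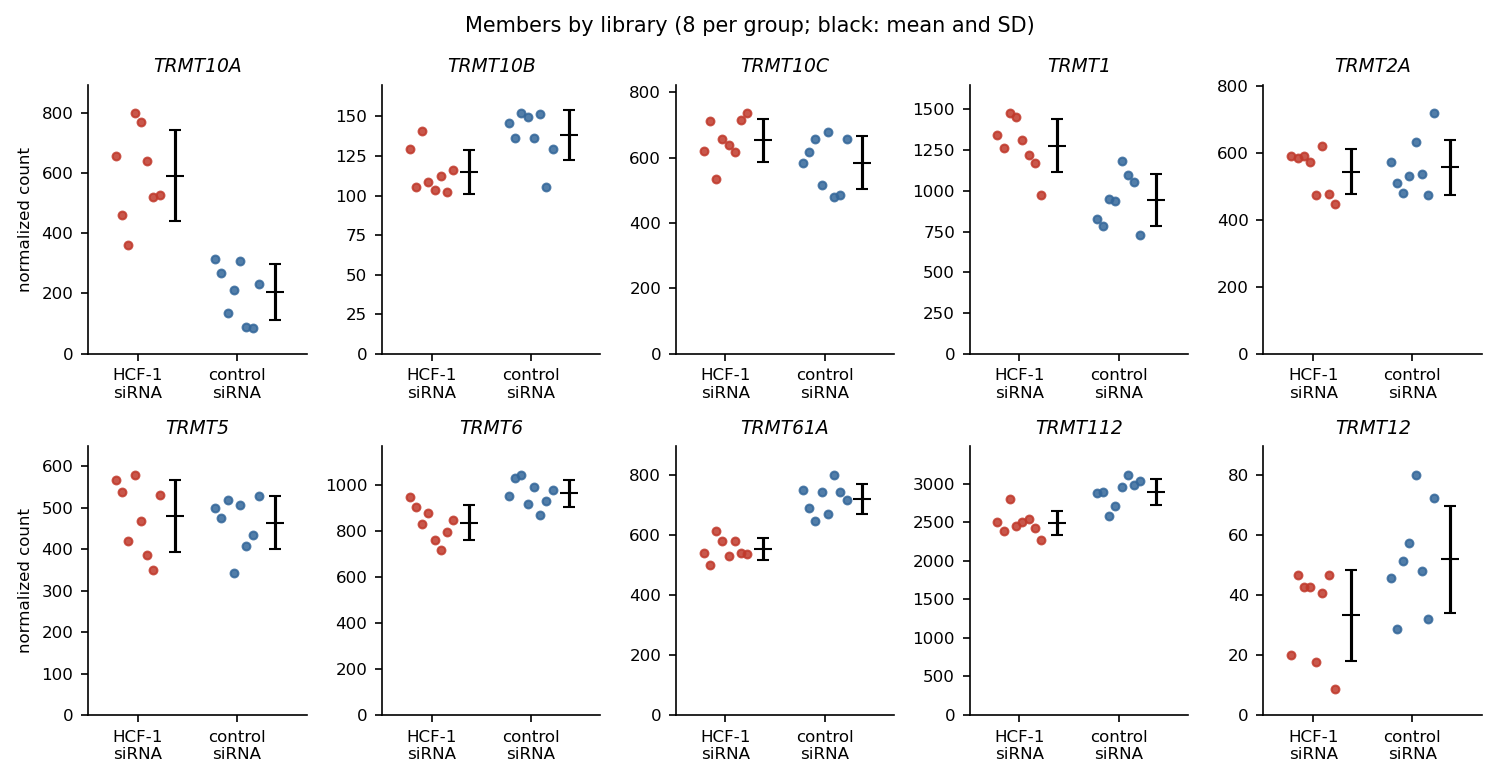
Normalized counts of the 10 genes in each library (linear axes from 0), HCF-1 siRNA libraries in red and control siRNA libraries in blue, with the mean and SD of 8 libraries in black. TRMT10A is higher in all 8 HCF-1 siRNA libraries than in any control siRNA library, and TRMT61A is lower in all 8.

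TRMT10A (ENSG00000145331, chromosome 4), which methylates a guanosine between the acceptor stem and the D arm of cytosolic tRNAs, ran from 361 to 800.3 normalized counts in the HCF-1 siRNA libraries (median 585), against 86.5 to 313 in the control siRNA libraries (median 223). Every HCF-1 siRNA library lay above every control siRNA library, as the plot of members by library shows. The means were 593 ± 152 normalized counts after HCF-1 siRNA and 206 ± 92.4 after control siRNA (SD, n = 8 each), a ratio of 2.88. The log2 fold change was 1.63 ± 0.27 (SE), on the scale of log2(normalized count + 1) used for all fold changes here. Ordered by size, it was increase 7 of 667 that were called, had no overlap between groups and reached a group mean of 100, next to MST1L (1.66) and RTEL1-TNFRSF6B (1.59). These are the values for which TRMT10A was chosen. In a bulk library, more cells that express a gene and more RNA per cell cannot be told apart.

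TRMT10A also varied within each group. Among HCF-1 siRNA libraries the lowest value was 361 normalized counts in replicate 3 and the highest 800.3 in replicate 4. The lowest control siRNA values were 86.5 and 89.7 normalized counts in replicates 7 and 6, or 65 and 88 recovered reads, and the highest was 313 in replicate 1. The coefficient of variation beyond counting noise within groups (edgeR's tagwise estimate) was 36.0%, larger than for 85.1% of genes tested. For TRMT10B, TRMT10C, TRMT1, TRMT2A and TRMT5 it was 12.7% to 16.5%, and for TRMT6, TRMT61A and TRMT112 it was 6.96% to 9.07%. Only TRMT12, at the lowest counts of the 10 genes, varied more, at 41.9%. Control siRNA replicates 6 and 7 and HCF-1 siRNA replicate 3 are among the 4 libraries highest on the second component. Without those 4 libraries, left out after seeing the data, TRMT10A had 461 to 800.3 normalized counts in 6 HCF-1 siRNA libraries and 134 to 313 in 6 control siRNA libraries, and the log2 fold change was 1.37. Of the libraries in which TRMT10A was lowest for their group, control siRNA replicate 7 had 21030830 reads, the fewest of all, and HCF-1 siRNA replicate 3 had 43186890, the most; the part of depth was not tested.

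The genes whose level followed that of TRMT10A most closely from library to library were sought among 12728 other genes with a mean of at least 50, as the correlation of deviations from the group means over 16 libraries. The group difference takes no part in this measure, and the libraries share their depth and scaling. The highest Pearson r was 0.85 (Spearman rho 0.81), for DNAJC9, a histone-binding co-chaperone. SLC9B2, a sodium-proton exchanger, had r = 0.83 (rho 0.72), and COX10, an enzyme of heme A synthesis, had r = 0.81 (rho 0.79). PCNXL4 followed at r = 0.80 (rho 0.79) and LRRC37B, which has near-identical copies, at r = 0.78 (rho 0.68). Without control siRNA replicates 6 and 7, the libraries farthest from the median, the r of these genes was 0.62 to 0.74. Within the HCF-1 siRNA libraries alone, r was 0.86 for DNAJC9, 0.60 for SLC9B2, 0.42 for COX10, 0.58 for PCNXL4 and 0.67 for LRRC37B. Within the control siRNA libraries alone, r was 0.85, 0.91, 0.97, 0.91 and 0.81, in the same order of genes. No p is given, because the genes are the highest of the whole table. Among the other members TRMT10C had the highest r, 0.54, and that of TRMT10B was 0.027.

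**Figure D2:**
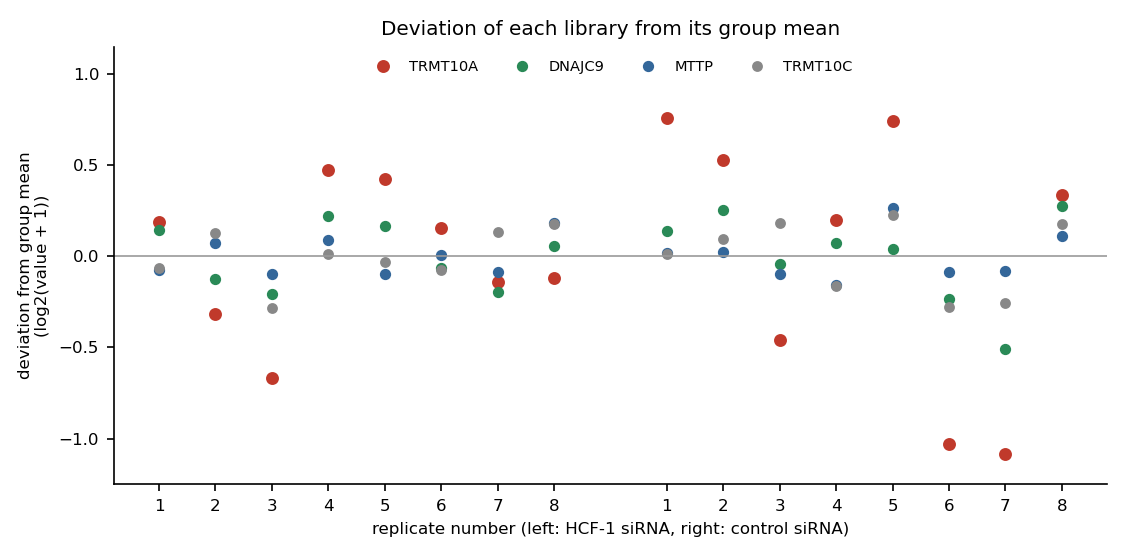
Deviation of each library from its group mean, on the log2(normalized count + 1) scale, for TRMT10A, DNAJC9, MTTP and TRMT10C, by replicate number within HCF-1 siRNA (left) and control siRNA (right). TRMT10A lies furthest below its group mean in control siRNA replicates 6 and 7, and DNAJC9 lies below its own mean in the same libraries.

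MTTP, the neighbour of TRMT10A, encodes the transfer protein that loads lipid onto apolipoprotein B. In GENCODE release 29 the genes start 271 bases apart on opposite strands, overlap, and share 19 exon bases, so without a known strand setting some reads at their starts cannot be told apart. MTTP rose, with values from 3569 to 4335 normalized counts in the HCF-1 siRNA libraries (median 3731), against 2911 to 3890.1 in the control siRNA libraries (median 3176), a log2 fold change of 0.24 ± 0.059 (limma adjusted p = 0.00461), with the groups overlapping. The within-group deviations of MTTP and TRMT10A had a Pearson r of 0.45 over 16 libraries.

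The starts of TRMT10A and of its paralog TRMT10B are shown because TRMT10A was higher and TRMT10B lower after HCF-1 siRNA, and because HCF-1 has no DNA-binding domain of its own and reaches promoters through factors such as ZNF143, THAP11, GABPA, YY1 and E2F proteins. The windows are from RefSeq on GRCh38.p14, 250 bases before to 50 after a start, and TRMT10A has 2 (chr4:99563990-99564289, minus strand, and chr4:99563674-99563973, minus strand); that of TRMT10B is chr9:37753555-37753854, plus strand. Capitals mark an exact match to a motif searched on both strands.
TRMT10A, upstream start: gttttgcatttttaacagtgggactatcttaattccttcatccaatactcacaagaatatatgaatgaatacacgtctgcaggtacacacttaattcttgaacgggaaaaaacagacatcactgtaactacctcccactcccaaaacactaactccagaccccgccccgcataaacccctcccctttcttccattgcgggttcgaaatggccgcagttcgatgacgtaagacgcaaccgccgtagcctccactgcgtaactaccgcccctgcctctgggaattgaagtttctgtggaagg
TRMT10A, downstream start: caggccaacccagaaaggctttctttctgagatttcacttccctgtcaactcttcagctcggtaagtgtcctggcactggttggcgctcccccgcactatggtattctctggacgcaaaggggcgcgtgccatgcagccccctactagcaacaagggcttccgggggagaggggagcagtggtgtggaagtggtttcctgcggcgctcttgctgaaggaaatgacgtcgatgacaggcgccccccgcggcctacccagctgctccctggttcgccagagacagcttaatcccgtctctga
TRMT10B: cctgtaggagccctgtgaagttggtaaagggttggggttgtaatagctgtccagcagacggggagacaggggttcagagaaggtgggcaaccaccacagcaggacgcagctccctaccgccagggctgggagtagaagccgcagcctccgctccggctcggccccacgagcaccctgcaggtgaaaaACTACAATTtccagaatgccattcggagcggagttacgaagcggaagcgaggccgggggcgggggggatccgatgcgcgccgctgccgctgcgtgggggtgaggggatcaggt
The window of TRMT10B holds ACTACAATT, the core of the motif bound by ZNF143 and THAP11, 63 bases before the start, and 0.336% of 35097 RefSeq windows hold it on either strand. Neither TRMT10A window holds it, nor CCGGAAGT (ETS factors such as GABPA, 4.14% of windows), AAGATGGCG (YY1, 1.75%), TTTCCCGC or TTTGGCGC (E2F, 1.63% and 0.652%), TGACGTCA (CREB, 1.85%) or CACGTG (E-box, 7.25%). This says only that these letters are not in these windows.

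Of the 9 members other than TRMT10A, 1 rose, 4 fell and 4 did not pass, beside the 36.6% of all genes that passed. The median log2 fold change of these 9 was -0.21, against 0.0064 over all genes tested. Of TRMT genes outside the members, named after their values were seen, TRMT9B rose. TRMT1L, TRMT2B, TRMT11, TRMT13, TRMT44 and TRMT61B did not pass, so these counts depend on which TRMT genes were taken as members. The groups did not overlap for 1 of the 9, against 9.82% of all genes, and none of the 9 both passed and changed at least 1.5-fold. TRMT10B (ENSG00000165275, chromosome 9), the paralog of TRMT10A known to modify a cytosolic aspartate tRNA, ran from 102 to 141 normalized counts in the HCF-1 siRNA libraries (median 110.3), against 105 to 152 in the control siRNA libraries (median 141). The groups overlapped, and none of the 8 HCF-1 siRNA libraries reached the control median. The means were 115 ± 13.7 normalized counts after HCF-1 siRNA and 138 ± 15.8 after control siRNA (SD, n = 8 each). TRMT10B fell with a log2 fold change of -0.27 ± 0.097 (limma adjusted p = 0.0394), near the threshold. Of 26 alternatives, 13 did not call TRMT10B (adjusted p 0.0517 to 0.133 in these, 0.0108 to 0.133 over all 26): no filter on low values, leaving out HCF-1 siRNA replicate 2, 4, 5, 6, 7 or 8, and leaving out control siRNA replicate 1, 2, 3, 4, 5 or 6. The log2 fold change stayed between -0.35 and -0.24.

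TRMT10C (ENSG00000174173, chromosome 3) is the mitochondrial paralog, which with HSD17B10 methylates mitochondrial tRNAs and holds them for PRORP, the nuclease of mitochondrial RNase P. It ran from 535 to 736 normalized counts in the HCF-1 siRNA libraries (median 647), against 478 to 678 in the control siRNA libraries (median 601). The log2 fold change of 0.17 ± 0.088 did not pass (limma adjusted p = 0.146), and its 95% interval was -0.017 to 0.35. HSD17B10, its methylation partner, fell, with 922 to 1158 normalized counts in the HCF-1 siRNA libraries, against 1299.7 to 1510.3 in the control siRNA libraries, with no overlap (log2 fold change -0.43 ± 0.051, limma adjusted p = 5.72e-06). ELAC2, which trims the other end of the precursor tRNA, also fell without overlap (-0.18 ± 0.035, adjusted p = 0.000555), and PRORP did not pass (0.12 ± 0.046, adjusted p = 0.0573). In the list of TRMT10C partners and mitochondrial RNA enzymes, 10 members were tested, 0 rose, 2 fell and 8 missed the threshold (20% called, against 36.6% of all genes; median log2 fold change -0.065). That median was 0.0032 without the 4 libraries highest on the second component. Up to 2 members rose in alternatives, which include leaving out HCF-1 siRNA replicate 3 or 6 or control siRNA replicate 1, 3 or 8.

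TRMT1 (ENSG00000104907, chromosome 19), which dimethylates a guanosine where the D and anticodon arms meet in cytosolic and mitochondrial tRNAs, was the only one of the 9 members other than TRMT10A that rose. It ran from 976 to 1476 normalized counts in the HCF-1 siRNA libraries (median 1289.7), against 729 to 1183 in the control siRNA libraries (median 943), and 6 of the 8 HCF-1 siRNA libraries lay above the highest control siRNA library. The means were 1277 ± 161 normalized counts after HCF-1 siRNA and 946 ± 159.6 after control siRNA (SD, n = 8 each). The log2 fold change was 0.44 ± 0.10 (limma adjusted p = 0.00277), and it stayed called in each of 26 alternatives. Its head-to-head neighbour NACC1, a transcriptional regulator gene, did not pass, with a log2 fold change of -0.17 ± 0.068 (limma adjusted p = 0.0575), although NACC1 passed in 6 of 26 alternatives, which include leaving out HCF-1 siRNA replicate 1 or 3 or control siRNA replicate 5 (adjusted p 0.0193 to 0.0486 in these, 0.0193 to 0.109 over all 26). Without the 4 libraries highest on the second component the log2 fold change of NACC1 was -0.21 (adjusted p = 0.0475).

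Both subunits of the enzyme that methylates an adenosine in the T loop of cytosolic tRNAs fell. TRMT61A (ENSG00000166166, chromosome 14), the catalytic subunit, ran from 501 to 614 normalized counts in the HCF-1 siRNA libraries (median 541), against 647 to 801 in the control siRNA libraries (median 730.4). No library of one group entered the range of the other. The means were 553 ± 35.8 normalized counts after HCF-1 siRNA and 721 ± 49.7 after control siRNA (SD, n = 8 each). Its log2 fold change was -0.38 ± 0.056 (limma adjusted p = 5.23e-05). TRMT6 (ENSG00000089195, chromosome 20), the tRNA-binding subunit, ran from 717 to 945 normalized counts in the HCF-1 siRNA libraries (median 839), against 870.1 to 1043 in the control siRNA libraries (median 964). The means were 835 ± 75.4 normalized counts after HCF-1 siRNA and 963 ± 58.3 after control siRNA (SD, n = 8 each). The ranges overlapped, with 5 of 8 HCF-1 siRNA libraries below the lowest control siRNA library, and the log2 fold change was -0.21 ± 0.060 (limma adjusted p = 0.0110). Of their head-to-head neighbours, MCM8, a DNA helicase gene of recombination repair, did not pass beside TRMT6 (0.013 ± 0.048, adjusted p = 0.851).

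The start windows of this pair are shown because both subunits fell. They are from RefSeq on GRCh38.p14, at chr20:5950484-5950783, minus strand, and chr14:103528946-103529245, plus strand, with motif matches in capitals.
TRMT6: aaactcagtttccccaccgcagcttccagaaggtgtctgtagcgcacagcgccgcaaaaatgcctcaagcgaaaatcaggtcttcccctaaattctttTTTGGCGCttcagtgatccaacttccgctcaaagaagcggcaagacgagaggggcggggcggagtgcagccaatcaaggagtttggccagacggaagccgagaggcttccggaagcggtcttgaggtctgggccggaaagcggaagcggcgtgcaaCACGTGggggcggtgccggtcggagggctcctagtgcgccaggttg
TRMT61A: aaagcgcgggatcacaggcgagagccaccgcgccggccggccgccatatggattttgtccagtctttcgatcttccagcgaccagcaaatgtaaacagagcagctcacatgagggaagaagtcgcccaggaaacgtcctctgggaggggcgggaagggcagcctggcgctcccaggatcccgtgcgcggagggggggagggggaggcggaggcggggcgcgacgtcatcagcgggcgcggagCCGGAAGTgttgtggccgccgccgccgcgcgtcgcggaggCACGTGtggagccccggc
Of RefSeq windows, 7.25% hold CACGTG at any position. Both windows shown hold it, after the start. That of TRMT6 also holds TTTGGCGC, 152 bases before the start, and that of TRMT61A holds CCGGAAGT, 8 bases before it. Over all members, windows of 8 genes were used, and CCGGAAGT or its reverse complement was also found for TRMT10C and TRMT112. TRMT2A and TRMT12 were not searched. No motif was found for TRMT1 or TRMT5.

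TRMT112 (ENSG00000173113, chromosome 11) is the small activator that stabilises several methyltransferases of tRNA, rRNA and protein. It ran from 2275 to 2807 normalized counts in the HCF-1 siRNA libraries (median 2479), against 2578 to 3116 in the control siRNA libraries (median 2922), and 7 of 8 HCF-1 siRNA libraries lay below the lowest control siRNA library. The means were 2488 ± 154 normalized counts after HCF-1 siRNA and 2894 ± 174 after control siRNA (SD, n = 8 each). TRMT112 fell, with a log2 fold change of -0.22 ± 0.046 (limma adjusted p = 0.00138). The 4 TRMT112 pseudogenes in the table were listed at 0 in all 16 libraries, and TRMT112 shares 284 exon bases with ESRRA on the other strand (0.089 ± 0.079, adjusted p = 0.401). PRDX5, a peroxidase gene that starts 4 bases from TRMT112 on the other strand, fell too (-0.27 ± 0.056, adjusted p = 0.000937), and ran 2279.5 to 2826 normalized counts in the HCF-1 siRNA libraries and 2783 to 3473 in the control siRNA libraries. Among 8 methyltransferase genes whose products TRMT112 is known or thought to partner, 2 rose, 2 fell and 4 missed the threshold (50% called, against 36.6% of all genes; median log2 fold change 0.12). ALKBH8, which methylates wobble uridines, rose, with 399 ± 65.8 normalized counts after HCF-1 siRNA, against 286 ± 62.0 after control siRNA (SD, n = 8 each, limma adjusted p = 0.00846). TRMT9B, at 20.5 normalized counts on average after HCF-1 siRNA and 9.76 after control siRNA, rose as well (log2 fold change 1.04 ± 0.30, adjusted p = 0.0125) and is named after its values were seen. With a replicate block or a filter at a mean of 50, 1 gene of this list rose, and ALKBH8 stayed called in both. METTL5 (-0.30 ± 0.091, adjusted p = 0.0157) and BUD23 (-0.23 ± 0.073, adjusted p = 0.0213), which methylate the small-subunit rRNA, fell, and neither passed without the 4 libraries highest on the second component (adjusted p = 0.0756 for METTL5 and 0.118 for BUD23).

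The remaining 3 members did not pass. TRMT5 (ENSG00000126814, chromosome 14), which methylates the guanosine beside the anticodon, ran from 349 to 579 normalized counts in the HCF-1 siRNA libraries (median 499.7), against 343 to 528 in the control siRNA libraries (median 488). Its log2 fold change was 0.039 ± 0.12 (limma adjusted p = 0.817), with a 95% interval of -0.20 to 0.28. TRMT2A (ENSG00000099899, chromosome 22), which methylates a uridine of the T loop, ran from 445 to 618 normalized counts in the HCF-1 siRNA libraries (median 578), against 473 to 717 in the control siRNA libraries (median 533). Its log2 fold change was -0.030 ± 0.094 (limma adjusted p = 0.832), with a 95% interval of -0.23 to 0.17. For TRMT5 and TRMT2A these intervals leave out a change of the size seen in TRMT10A. TRMT12 (ENSG00000183665, chromosome 8), which despite its name adds a larger part of S-adenosylmethionine to phenylalanine tRNA in wybutosine synthesis, had 8 to 85 recovered reads per library and ran from 8.69 to 46.6 normalized counts in the HCF-1 siRNA libraries (median 41.6), against 28.6 to 80.0 in the control siRNA libraries (median 49.6). Below the lowest control siRNA library lay 3 of the 8 HCF-1 siRNA libraries. The log2 fold change of -0.74 ± 0.33 did not pass (limma adjusted p = 0.0864), and at this depth its 95% interval ran from -1.42 to -0.052 before adjustment. TRMT2A shares 393 exon bases with RANBP1, a nuclear transport gene on the other strand that fell (-0.19 ± 0.051, adjusted p = 0.00668), and 12 with DGCR8, a microRNA processing gene that rose (0.27 ± 0.091, adjusted p = 0.0260). DGCR8 was not called without HCF-1 siRNA replicate 3 (adjusted p = 0.0514) or without the 4 libraries highest on the second component (adjusted p = 0.105). TRMT5 shares 245 exon bases with SLC38A6, an amino acid transporter gene that did not pass (0.010 ± 0.16, adjusted p = 0.969).

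**Figure D3:**
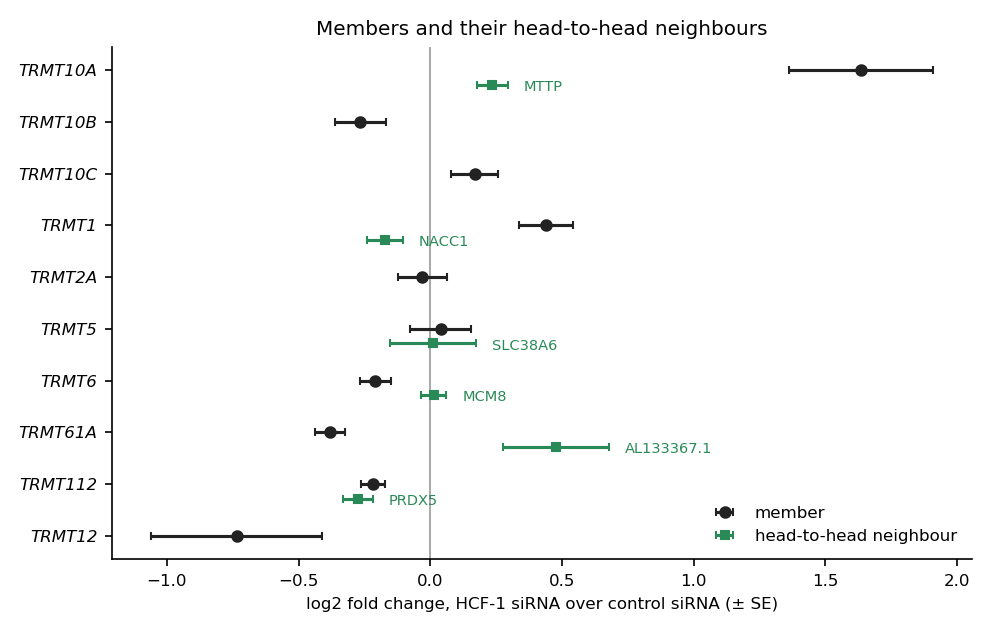
Change after HCF-1 siRNA relative to control siRNA (log2, points, with the SE as lines, 8 libraries a group) of the 10 genes in black and, in green, of genes that start head to head with them in GENCODE release 29. AL133367.1 is the symbol of ENSG00000260285; TRMT10A (1.63) lies apart from MTTP (0.24), and TRMT112 (-0.22) lies beside PRDX5 (-0.27).

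Other genes that overlap or adjoin the members did not pass: EXOSC3, an RNA exosome subunit gene that overlaps TRMT10B (-0.076 ± 0.10, adjusted p = 0.590), ENSG00000260285, which starts 112 bases from TRMT61A (0.48 ± 0.20, adjusted p = 0.0737), ENSG00000243762, which overlaps TRMT2A (0.025 ± 0.23, adjusted p = 0.946) and ENSG00000258892, which overlaps TRMT5 (-0.068 ± 0.19, adjusted p = 0.806). ENSG00000260285 passed in alternatives without HCF-1 siRNA replicate 8 (adjusted p = 0.0406) or control siRNA replicate 1 (adjusted p = 0.0400). A further 3 neighbours had a mean under 10 and were not tested.

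Levels were compared between genes as normalized counts per kilobase of exon, with exon lengths of GENCODE release 29. TRMT112 was the most abundant, at 1531 ± 94.7 per kilobase after HCF-1 siRNA and 1781 ± 107 after control siRNA (SD, n = 8 each), and in both groups its range was apart from that of the next gene. After control siRNA the order then ran TRMT10C (309 ± 43.0), TRMT1 (281 ± 47.5), TRMT6 (255 ± 15.5) and TRMT61A (223 ± 15.4), each of which overlapped the next. TRMT2A (140.3 ± 20.9) and TRMT5 (81.6 ± 11.3) followed, each apart from the genes next to it in the order. TRMT10B (48.3 ± 5.50), TRMT10A (47.0 ± 21.1) and TRMT12 (22.2 ± 7.66) came last. Ranges overlapped between TRMT10B and TRMT10A and between TRMT10A and TRMT12. The range of TRMT10A after control siRNA, 19.8 to 71.6, also overlapped that of TRMT5, 60.3 to 92.8. After HCF-1 siRNA TRMT10A stood seventh, at 135 ± 34.7 per kilobase, and overlapped TRMT2A (137 ± 16.9) and TRMT5 (84.3 ± 15.2), while TRMT10B was at 40.1 ± 4.79 and TRMT12 at 14.2 ± 6.50. TRMT1 (379.7 ± 47.9) and TRMT10C (346 ± 35.0) exchanged places with overlapping ranges. The order depends on the exons that the annotation gives each gene.

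**Figure D4:**
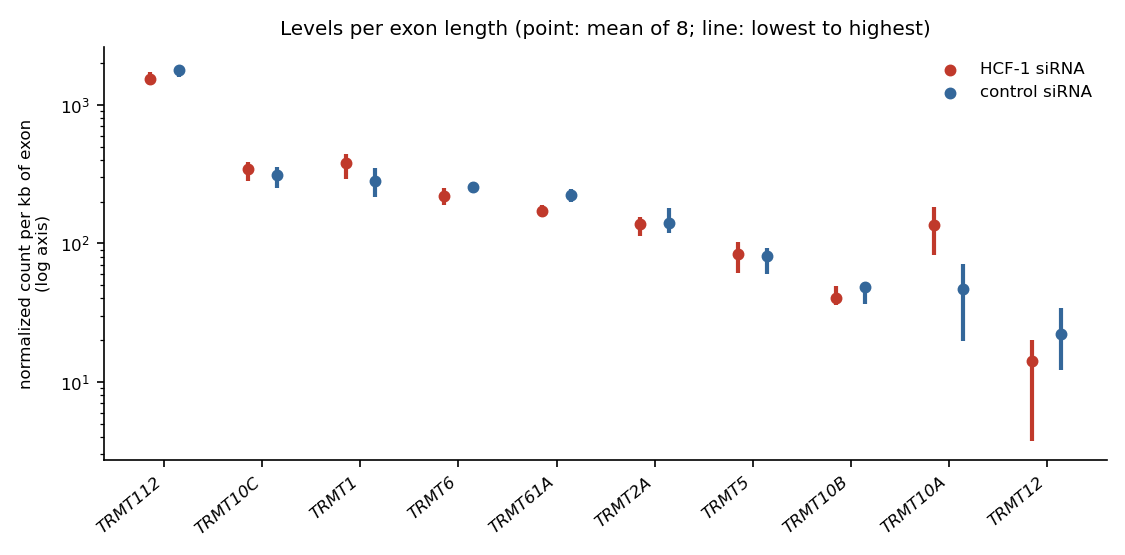
Normalized counts per kilobase of exon (log axis) for the 10 genes in the order of their control siRNA means; points are means of 8 libraries and lines run from the lowest to the highest library, HCF-1 siRNA in red and control siRNA in blue. TRMT10A averages 135 after HCF-1 siRNA and 47.0 after control siRNA, where it overlaps TRMT10B.

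Other genes of tRNA modification and processing were read from 9 lists, some of which share genes, with 135 genes in all. The lists also hold rRNA methyltransferases, other mitochondrial RNA enzymes, RNA demethylases and genes of methyl donor supply. Of these, 50.4% passed, beside 36.6% of all genes tested. Of the 135, 20 rose and 48 fell, beside 18.2% and 18.3% of all genes. The groups did not overlap for 5 that rose and 14 that fell, beside 4.59% and 5.23% of all genes. The shares over all genes include genes of low counts. With a filter at a mean of 50, 5412 genes were called, and 12728 genes besides TRMT10A had such a mean. The part of count level in these shares was not tested. The 135 genes had a median log2 fold change of -0.079, against 0.0064 over all genes. No set test was made of any list. Among 28 other tRNA methyltransferase genes, 7 rose, 4 fell and 17 missed the threshold (39.3% called; median log2 fold change 0.023). TARBP1, a ribose methyltransferase, rose (0.60 ± 0.14, adjusted p = 0.00215), with 746 to 1315 normalized counts in the HCF-1 siRNA libraries and 476 to 826 in the control siRNA libraries. NSUN3, which methylates mitochondrial methionine tRNA, rose narrowly (0.52 ± 0.19, adjusted p = 0.0376) and was not called in 12 of 26 alternatives, which include edgeR on recovered reads, the fit with a replicate block (adjusted p = 0.0556), leaving out the 4 libraries highest on the second component, and leaving out HCF-1 siRNA replicate 1, 2, 6 or 8 or control siRNA replicate 1, 4, 5 or 6 (adjusted p 0.0529 to 0.0737 in these, 0.0181 to 0.0737 over all 26). LCMT2, the last enzyme of wybutosine synthesis, fell (-0.50 ± 0.097, adjusted p = 0.000601). METTL1 (-0.31 ± 0.073), the catalytic subunit of a guanosine methyltransferase, FTSJ1 (-0.23 ± 0.053) and THADA (-0.26 ± 0.085) were the others that fell, and are named after their values were seen.

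Of the genes that modify the wobble uridine, 3 rose, 7 fell and 7 missed the threshold out of 17. The share called was 58.8%, against 36.6% of all genes, and the median log2 fold change was -0.14. Those that fell included CTU2 (-0.47 ± 0.11, adjusted p = 0.00305), of the complex that adds sulfur to this base, and MOCS3 (-0.40 ± 0.064, adjusted p = 0.000118), which activates the sulfur carrier and whose groups did not overlap. ALKBH8 (0.49 ± 0.13), described above, and TRMU (0.14 ± 0.048), a sulfur-adding enzyme of mitochondrial tRNAs named after its values were seen, were among those that rose. With a replicate block, or without HCF-1 siRNA replicate 2, only 1 of the list rose. Of the other genes of the anticodon loop, 2 rose, 7 fell and 8 missed the threshold out of 17. The share called was 52.9%, against 36.6% of all genes, and the median log2 fold change was -0.11. LAGE3, a subunit of the complex that places a threonyl group beside the anticodon, fell, with 177 to 218 normalized counts after HCF-1 siRNA, against 267 to 313 after control siRNA (-0.49 ± 0.066, adjusted p = 2.00e-05). TYW3, a wybutosine methyltransferase, rose without overlap (0.44 ± 0.069, adjusted p = 9.75e-05), and TYW5 rose with overlap (0.33 ± 0.075, adjusted p = 0.00229).

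Of 23 genes of pseudouridine and dihydrouridine formation, acetylation and deamination, 4 rose, 9 fell and 10 missed the threshold. The share called was 56.5%, against 36.6% of all genes, and the median log2 fold change was -0.18. PUS10, a pseudouridine synthase, rose, with 773 to 1014 normalized counts after HCF-1 siRNA, against 466 to 615 after control siRNA (0.66 ± 0.067, adjusted p = 1.09e-06). RPUSD4 (0.36 ± 0.050), ADAT2 (0.37 ± 0.085) and THUMPD1 (0.22 ± 0.064) were the others that rose, named to complete the count. PUS3 (-0.57 ± 0.10, adjusted p = 0.000324), another pseudouridine synthase, and RPUSD3 (-0.37 ± 0.059, adjusted p = 9.65e-05), a mitochondrial one, fell. Of 28 genes of tRNA end processing, splicing and export, 2 rose, 13 fell and 13 missed the threshold. The share called was 53.6%, against 36.6% of all genes, and the median log2 fold change was -0.093. TSEN34, a subunit of the splicing endonuclease, fell, with 1146 to 1474 normalized counts after HCF-1 siRNA, against 1585 to 1937 after control siRNA (-0.48 ± 0.057, adjusted p = 5.34e-06). POP4, a subunit of nuclear RNase P, fell without overlap (-0.41 ± 0.062, adjusted p = 5.94e-05), and ELAC1, the cytosolic relative of ELAC2, fell at low counts (-0.65 ± 0.14, adjusted p = 0.00156). XPOT, the tRNA exporter (0.26 ± 0.047), named after its values were seen, was among those that rose.

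Of 4 RNA demethylase genes, 0 rose, 3 fell and 1 missed the threshold. The share called was 75% of only 4 genes, against 36.6% of all genes, and the median log2 fold change was -0.19. ALKBH3, which removes methyl groups from adenosines and cytidines in RNA and DNA, fell, with 313 to 391 normalized counts after HCF-1 siRNA, against 487 to 551 after control siRNA (-0.59 ± 0.056, adjusted p = 6.09e-07). FTO, a demethylase of adenosines, fell without overlap (-0.28 ± 0.044, adjusted p = 7.91e-05). ALKBH5, a demethylase of mRNA, fell by less (-0.10 ± 0.036, adjusted p = 0.0292) and was not called in 8 of 26 alternatives, which include the fit with a replicate block (adjusted p = 0.0824), leaving out those 4 libraries, and leaving out HCF-1 siRNA replicate 2 or 3 or control siRNA replicate 4, 5 or 8 (adjusted p 0.0518 to 0.130 in these, 0.00779 to 0.130 over all 26). For the supply of the methyl donor, 4 of 11 genes rose, 3 fell and 4 did not pass. The share called was 63.6%, against 36.6% of all genes, and the median log2 fold change was 0.046. MAT2A, the S-adenosylmethionine synthetase of proliferating cells, rose, with 5072 to 5953 normalized counts after HCF-1 siRNA, against 3979 to 4558 after control siRNA (0.37 ± 0.038, adjusted p = 1.67e-06). MTR, methionine synthase, rose (0.23 ± 0.062, adjusted p = 0.00728), with MTRR (0.21 ± 0.078) and AHCYL1 (0.12 ± 0.039), and SLC25A26, the mitochondrial S-adenosylmethionine carrier, fell (-0.29 ± 0.080, adjusted p = 0.00845), with MAT2B (-0.23 ± 0.076) and AHCY (-0.14 ± 0.036). In 7 of 26 alternatives only 2 of these genes, MAT2A and MTR, rose, and MTRR and AHCYL1 were not called. The alternatives were no filter on low values, upper-quartile scaling, total-count scaling and leaving out control siRNA replicate 2, 3 or 4. Leaving out the 4 libraries highest on the second component was the last.

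**Figure D5:**
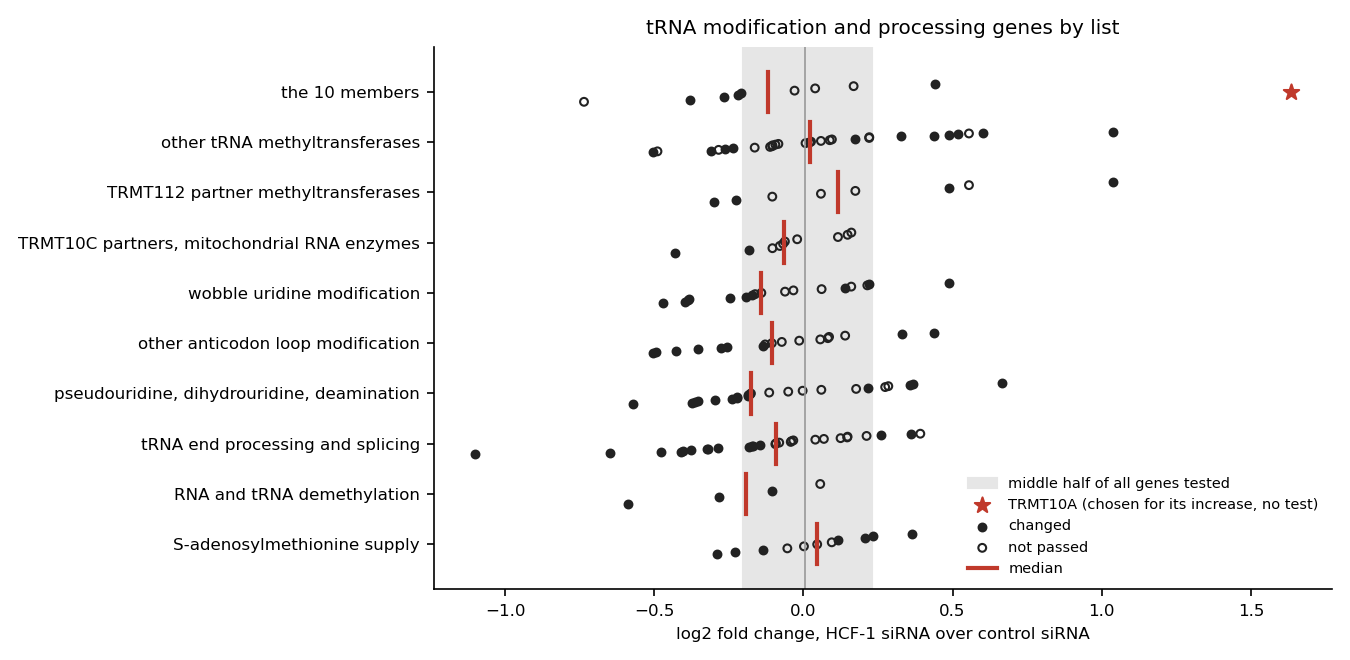
Change after HCF-1 siRNA relative to control siRNA (log2) of the 10 genes and of 9 lists of tRNA modification, processing and related genes. Filled points passed an adjusted p under 0.05, open points did not, and red bars are medians. The bar of the 10 genes includes TRMT10A (median -0.12), and the median of the other 9 was -0.21. Vertical offsets within a row only separate the points. The star is TRMT10A, and the grey band runs from the lower to the upper quartile of all genes tested. TRMT10A (1.63) lies to the right of every other point, and the medians of the 9 lists lie within the band.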

How the data were processed

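RNA-seq libraries of HepG2 cells, 8 with HCF-1 siRNA and 8 with control siRNA, were analysed from 1 table of normalized counts per Ensembl gene, a signal that the authors deposited. Per the submitters' processing notes, the tools were DESeq2 (1.16.1), STAR (2.4.1d), cutadapt (1.4.2) and featureCounts (1.4.4), and the build was hg19; libraries were a stranded mRNA kit's, per the labels' protocols. Neither the annotation release nor the strand setting of the counting is stated in those notes. Divided by the smallest unit of its library, each value came out whole (100% of values, tolerance 0.001 read), which gave back the reads. A column whose name lacks a digit was matched by its group and number, and no pair of libraries of a group agreed within sampling noise. Genes with a mean of at least 10 were tested with limma 3.58.1 in R 4.3.3 (trend and robust) on log2(deposited value + 1), which understates changes of low genes, with Benjamini-Hochberg adjustment over all genes tested. The step was also tested on simulated data. Members and lists were chosen with earlier results of these data known. Beyond the members, each list's called genes with the biggest change (at most 3, mean of 50 or more in either group; where none passed, the gene of highest mean), the neighbours of members starting within 1000 bases or overlapping them, and the 5 genes most like TRMT10A were named; a gene outside this rule is said to be named after its values were seen, or completes a count. Some genes of the lists are not reported here by name. Neighbours and exon lengths came from GENCODE release 29 (GRCh38) by Ensembl identifier, and promoter windows from RefSeq; neither shares the build of the table, so no coordinates of counted genes are printed. The alternatives used other pseudocounts (0.5, 10), other filters (none, mean of 50), other scaling (total count, upper quartile), other tools on recovered reads (edgeR 4.0.16 quasi-likelihood, 5853 genes called; DESeq2 1.42.0, 6258 genes called), a replicate block, each library left out, and, added after seeing the data, 4 libraries left out.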

Additional observations from a re-analysis of the deposited data

Results flagged for a closer look

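In 5 of 92 groups of values of named genes, a single library stood apart: its distance to the closest library was a large share of the whole spread of that group. Chance picks about 1 in 20 groups this way. None of the 10 tRNA methyltransferase genes was among them. For PUS10, HCF-1 siRNA replicate 2 stood at 1014 normalized counts, and the rest of that group at 773 to 879. For PUS3, HCF-1 siRNA replicate 5 stood at 303 normalized counts, and the rest of that group at 193 to 229. For PUS3, control siRNA replicate 1 stood at 448 normalized counts, and the rest of that group at 287 to 338. For ALKBH3, control siRNA replicate 1 stood at 487 normalized counts, and the rest of that group at 522 to 551. For ALKBH5, HCF-1 siRNA replicate 1 stood at 2748 normalized counts, and the rest of that group at 2378 to 2543.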

How the results depend on the processing

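Over 26 alternatives, genes changed numbered 5029 to 6258 (5879 as reported), and 4 or 5 of the 9 members other than TRMT10A, always 1 of them higher. TRMT10A had a log2 fold change of 1.37 to 1.74, and of 1.48 to 1.74 with 1 library left out. TRMT1, TRMT6, TRMT61A and TRMT112 stayed called, TRMT2A, TRMT5, TRMT10C and TRMT12 stayed uncalled, and, of the 46 genes followed through the alternatives, no called one changed direction. Of 45 of these with a test, 37 kept their side of the threshold throughout. The median of the S-adenosylmethionine supply list, 0.046 as reported, was 0.018 with total-count scaling, 0.080 with DESeq2 and -0.017 to 0.091 with 1 library left out, below 0 without HCF-1 siRNA replicate 2 or 4 or control siRNA replicate 4. That of TRMT10C partners and mitochondrial RNA enzymes was 0.0032 without the 4 libraries highest on the second component. The cause of these shifts was not tested. With no filter on low values, 4 wobble uridine genes and 4 other anticodon loop genes fell, 7 each as reported. Same-numbered libraries showed little shared deviation (correlations -0.074 to 0.098), and 1 of 8, replicate 6, matched best with its own number. These correlations cannot show whether same-numbered libraries were prepared together. With the replicate block 5484 genes changed and 5 of the 9 members. TRMT12 had 8 to 85 reads per library and TRMT10A 65 to 337 in control siRNA libraries; the part of depth in their spread was not tested.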
